A study of Mus musculus with 8 samples.

Results

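Chromatin accessibility at 10 genes of growth factor and cytokine receptor signalling was followed in hepatocytes after partial hepatectomy (PHx), an operation in which lobes are cut away and the residual liver grows back. The 10 genes were chosen by name from 21938 protein-coding genes. They comprise the 7 receptors Met, Egfr, Erbb3, Insr, Igf1r, Tnfrsf12a and Tnfrsf1a, the receptor substrates Irs1 and Irs2, and the inhibitor Errfi1. ATAC-Seq on bulk nuclei, which reads out open DNA by where Tn5 transposase can insert sequencing adapters, was run on hepatocytes perfused with collagenase from livers of C57BL/6 mice (C57BL/6J in the study's methods) aged 10 to 12 weeks per the labels. Per the study's methods the mice were male. The 2 libraries at 0 h came from undamaged liver, and 2 libraries each came from livers 48, 72 and 96 h after PHx. The study's methods describe several mice per time point as the source of hepatocytes and call the replicates independent. The labels do not tie a library to a mouse, so p-values are read as measuring the spread between these libraries.

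Growth factor receptors carry much of the signal that pushes resting hepatocytes back into the cell cycle. Met binds hepatocyte growth factor, and Egfr binds EGF, TGF-alpha, amphiregulin and HB-EGF. Both are receptor tyrosine kinases, and together they are the classical direct mitogen receptors of the regenerating liver. Insulin and IGF-1 act through Insr and Igf1r, which phosphorylate the docking proteins Irs1 and Irs2, whereas TNF and TWEAK act through the death-domain receptor Tnfrsf1a and through Tnfrsf12a (Fn14).

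Each library was deposited as a list of intervals called as accessible. The 8 lists held between 105206 and 154577 distinct intervals, ranked within each list by the −log10 p of the peak caller, with rank 1 the strongest. Ranks past 105206, the length of the shortest list, were counted as not listed. In what follows a stronger interval has a smaller rank number, and differences are on the −log2 rank scale, so that 1 unit is a factor of 2 in the rank number and a positive value is stronger after PHx. Reads were not counted in these lists, which leaves the depth unknown, and the strength of the 50000th interval (−log10 p of 15.2 and 9.96 at 0 h, 8.05 and 8.62 after 48 h, 14.8 and 14.0 after 72 h, and 14.5 and 8.29 after 96 h) stands in for it. Promoters of 12 hepatocyte markers were listed in 12 of 12 cases in both 0 h libraries. They were listed in 6 and 10 cases in 48 h replicates 1 and 2, and in 11 cases in each 72 and 96 h library. Those of Kupffer cell and macrophage genes were listed for 0 to 2 of 8 genes, of lymphocyte genes for 0 to 1 of 8, of stellate cell and fibroblast genes for 3 to 4 of 8, of cholangiocyte genes for 3 to 5 of 8, and of endothelial genes for 3 to 6 of 8. Hepatocyte marker promoters themselves ranked weaker in both libraries than both 0 h values in 9 of 12 cases at 48 h, 9 of 12 at 72 h and 6 of 12 at 96 h, against 28.9%, 31.2% and 19.9% of all promoters, and 0 were stronger. Of the stellate cell and fibroblast promoters that could be compared, 3 of 4 were stronger and 0 weaker at 48 h, 0 of 3 stronger at 72 h and 1 of 3 at 96 h, against 17.5%, 16.7% and 14.9% of all promoters stronger. Of the endothelial ones, 1 of 3, 1 of 3 and 1 of 4 were stronger and 0 weaker, and of the cholangiocyte ones 0 of 4 were stronger and 1, 1 and 0 weaker at the 3 time points. The 1 Kupffer cell and macrophage promoter that could be compared was stronger at 48 h, weaker at 72 h and overlapping at 96 h. Of the hepatocyte markers, Alb ranked 35178 and 52573 at 0 h and was not listed in either 48 h or either 72 h library. It is not typical of the 12 at 72 h, where each library listed 11. The part of these shifts in the values below was not tested.

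Each of the 10 genes had an interval overlapping its promoter window in both 0 h libraries, but these intervals spanned a wide range of strength. By median rank over the 8 libraries the order was Irs1 (1230), Met (1908.5), Egfr (6157.5), Insr (8403), Erbb3 (12106.5), Irs2 (19647.5), Igf1r (22312), Tnfrsf12a (28762), Errfi1 (29549) and Tnfrsf1a (31735.5), with the single unlisted value taken as the last rank. Of the 12988 promoters listed in all 8 libraries, 92.6% had a weaker median than Irs1 and 88.5% a weaker one than Met, against 15.7% for Tnfrsf1a. Every pair of neighbours in this order overlapped in its range over libraries. Those of Met (1288 to 3411) and Insr (4994 to 15812) did not overlap. A rank reflects both the width and the height of an interval, so the order is one of significance and not of accessibility per base. The value of a promoter is that of its strongest interval in each library. For Erbb3, Irs2 and Errfi1, 3 of the 9 promoters listed in all 8 libraries, this interval did not lie in the same region in every library, which held for 6.12% of the 12988 promoters. An interval needed only to overlap the promoter window. With its summit required to lie inside the window, Igf1r could not be compared at any time point, nor Irs2 at 96 h.

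**Figure D1:**
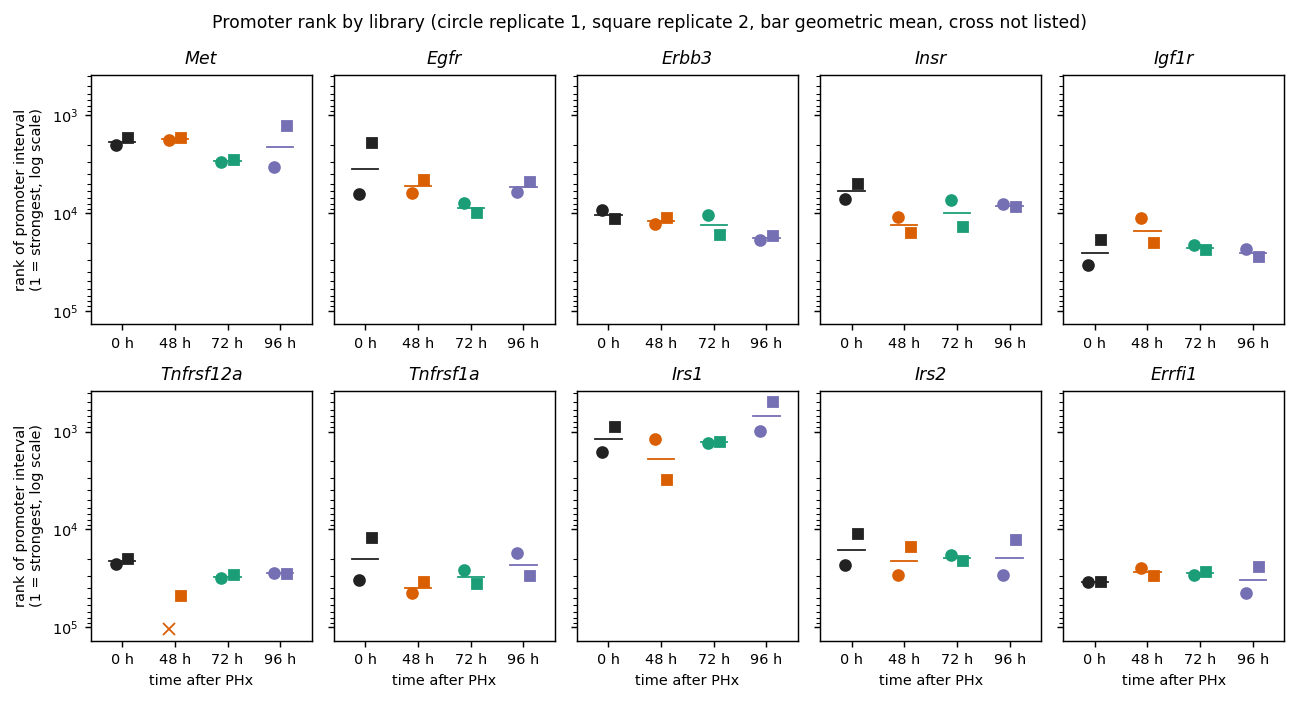
Rank of the strongest promoter interval (vertical axis, log scale, 1 the strongest and plotted upward) of the 10 genes against time after PHx. Circles are replicate 1, squares replicate 2, bars the geometric mean of both and the cross a library in which the interval was not listed. Insr and Tnfrsf12a lie below both 0 h points at every time point, and Errfi1 lies above them at 48 and 72 h, where its strongest interval is not from the same region in every library.

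Met (ENSMUSG00000009376.15, mm10 chr6:17463800-17573980, plus strand) had the strongest promoter among the receptors. Its promoter ranked 2035 and 1724 at 0 h, 1782 and 1691 after 48 h, 2985 and 2834 after 72 h, and 3411 and 1288 after 96 h. Both 72 h libraries thus lay below both 0 h libraries, while the 48 and 96 h values overlapped them. Fold enrichment over local background at this promoter was 11.9 and 12.7 at 0 h, 9.88 and 10.8 after 48 h, 11.6 and 11.0 after 72 h, and 10.4 and 14.0 after 96 h. The fitted difference at 72 h was −0.63 ± 0.77 (SE), with an adjusted p of 0.80. A second annotated start of Met lies 27.9 kb inside the gene, over a coding exon (region chr6:17491089-17492414). That region ranked 11245 and 14728 at 0 h, 16449 and 16444 after 48 h, 21943 and 20902 after 72 h, and 17288 and 15008 after 96 h. All 6 PHx libraries were therefore weaker than both 0 h libraries, the weakest 0 h value and the nearest PHx value being close (14728 and 15008), and the separation was absent on the scales of fold enrichment and of the share of the full list.

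At Met, 33 distal regions (outside the promoter windows, in the gene or within 10 kb of it) were listed in at least 1 library, 12 of them in all 8. The strongest, in an intron 105.1 kb from the start, ranked 6461 and 11951 at 0 h, 18084 and 6568 after 48 h, 12114 and 7430 after 72 h, and 13897 and 4677 after 96 h. These values overlapped between all time points. A set of 4 regions was weaker in all 6 PHx libraries than in both 0 h libraries. An intronic region 5.4 kb from the start (chr6:17469008-17469462) ranked 33947 and 36118 at 0 h, 101540 and 53895 after 48 h, 76603 and 57181 after 72 h, and 62238 and 58772 after 96 h. Its fitted differences were −1.08 ± 0.39 (SE) at 48 h (unadjusted p = 0.0078, adjusted p = 0.27), −0.92 ± 0.39 at 72 h and −0.79 ± 0.39 at 96 h, and none passed the adjusted threshold. A second intronic region 22.2 kb from the start (chr6:17485651-17486330) ranked 39708 and 35990 at 0 h, 47248 and 51883 after 48 h, 52837 and 72771 after 72 h, and 60044 and 45779 after 96 h. Both kept this separation on the fold enrichment scale and as a share of the full list. The other 2 lie 85.3 kb (over a coding exon) and 38.7 kb from the start, and separated by rank and fold enrichment only. The region at 85.3 kb ranked 27410 and 26752 at 0 h and between 32957 and 83054 after PHx, whereas the one at 38.7 kb ranked 65417 and 61663 at 0 h and was listed in 1 PHx library (75921), so that its separation rests mainly on not being listed. In the opposite direction, an intronic region 91.2 kb from the start ranked 19410 and 26258 at 0 h and 4916 and 17876 after 48 h, with a fitted difference of 1.27 ± 0.62 (SE) and an adjusted p of 0.42.

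The sequences of the summits of these regions, the strongest Met region and both regions that separated on all 3 scales, are given as 200 bases of the plus strand of GRCm38.p6, with matches to any of 12 searched motifs in capitals. The windows are chr6:17568752-17568951 (105.1 kb), chr6:17469070-17469269 (5.4 kb) and chr6:17485862-17486061 (22.2 kb).
Met 105.1 kb: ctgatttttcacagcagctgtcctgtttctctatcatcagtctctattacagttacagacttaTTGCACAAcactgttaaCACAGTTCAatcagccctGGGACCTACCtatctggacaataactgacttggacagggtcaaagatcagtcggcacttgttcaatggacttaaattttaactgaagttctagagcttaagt
Met 5.4 kb: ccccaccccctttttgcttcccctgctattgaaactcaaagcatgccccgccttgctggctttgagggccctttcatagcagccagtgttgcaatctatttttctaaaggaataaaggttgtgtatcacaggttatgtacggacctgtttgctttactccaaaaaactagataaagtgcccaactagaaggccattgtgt
Met 22.2 kb: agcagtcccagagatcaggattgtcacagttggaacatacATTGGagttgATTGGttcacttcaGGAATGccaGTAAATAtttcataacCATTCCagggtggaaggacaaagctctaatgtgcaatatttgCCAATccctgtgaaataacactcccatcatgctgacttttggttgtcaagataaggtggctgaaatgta
The strongest Met window held matches to the HNF4 letters (CANAGTNCA, in 7.79% of all 137836 distal windows), the C/EBP letters (TTNNGCAA, 10.8%) and a loose NF-kB pattern (GGG and CC with 5 bases between them, 26.0%). HNF4 and C/EBP factors maintain hepatocyte gene expression. None of the 12 motifs was found at 5.4 kb, and the window at 22.2 kb held FOXA/FOXO (TNTTTAC, 10.3%), NFY (CCAAT, 23.3%) and TEAD (GGAATG, 11.0%) matches.

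Egfr (ENSMUSG00000020122.16, chr11:16752203-16918158, plus strand) held the largest number of distal regions of the 10 genes, 103. The number listed was 61 and 48 at 0 h, 26 and 38 after 48 h, 35 and 40 after 72 h, and 32 and 41 after 96 h. Every PHx library therefore listed fewer Egfr regions than both 0 h libraries. Regions listed in both libraries of a time point numbered 32 at 0 h, and after PHx 17 (48 h), 24 (72 h) and 21 (96 h). Of 5032 loci with at least 10 distal regions, 19.2% had fewer regions listed in both 48 h libraries than either 0 h library, 14.9% at 72 h and 15.1% at 96 h, while 9.38%, 11.2% and 8.59% had more. Over those loci the median number listed was 7 in 7 libraries and 8 in 0 h replicate 2. The Egfr separation depended on the length at which lists were ended. With full lists the counts were 73 and 48 at 0 h, 31 and 47 after 48 h, 50 and 51 after 72 h, and 51 and 47 after 96 h, so that only the 48 h libraries lay below both. In the 50000 strongest intervals, 12 and 5 Egfr regions were listed at 0 h and 4 to 8 after PHx, which overlapped. Met listed 19 and 19 regions at 0 h, 17 and 16 after 48 h and 17 and 18 after 72 h, and Irs1 listed 11 and 10 at 0 h, 9 and 7 after 72 h and 8 and 9 after 96 h. None of the 10 loci listed more regions than both 0 h libraries at any time point when lists were ended at rank 105206. This too depended on the list length. With full lists Met and Irs1 overlapped 0 h at every time point, and more regions than in both 0 h libraries were listed at Tnfrsf12a at 48 h and at Insr, Igf1r and Errfi1 at 72 h. In the 50000 strongest intervals, on the other hand, Met listed 13 and 11 regions at 0 h and 7 to 10 after PHx, and Irs1 5 and 5 at 0 h and 2 to 4 after PHx, both fewer at all 3 time points. Insr was fewer at 96 h there, with 6 and 8 at 0 h and 5 and 3 after 96 h. The share of all loci was not computed at this list length, so these counts have no background. At Igf1r the full-list counts were 17 and 18 at 0 h and 26 and 26 after 72 h. Of the 5032 loci, 9.84%, 22.4% and 11.5% then had more regions and 17.1%, 6.14% and 8.6% fewer at the 3 time points. The count of regions per locus was chosen as a measure after values were seen.

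**Figure D2:**
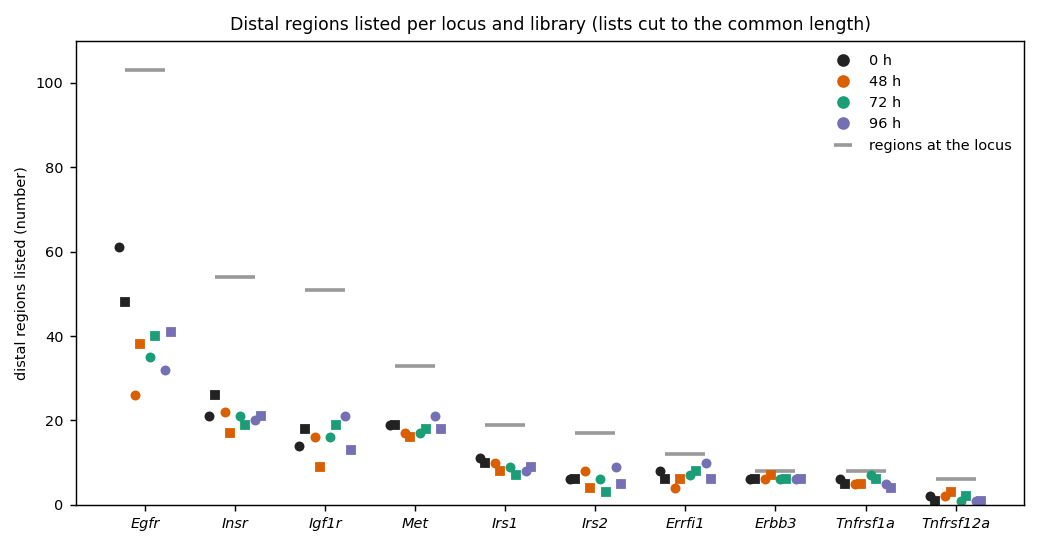
Number of distal regions listed at each locus (vertical axis) in the 8 libraries, with lists ended at rank 105206. Circles are replicate 1, squares replicate 2, colours the time after PHx and grey bars the number of regions at the locus in any library. The 6 Egfr values after PHx lie between 26 and 41, below 48 and 61 at 0 h, while most other loci overlap between time points.

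**Figure D3:**
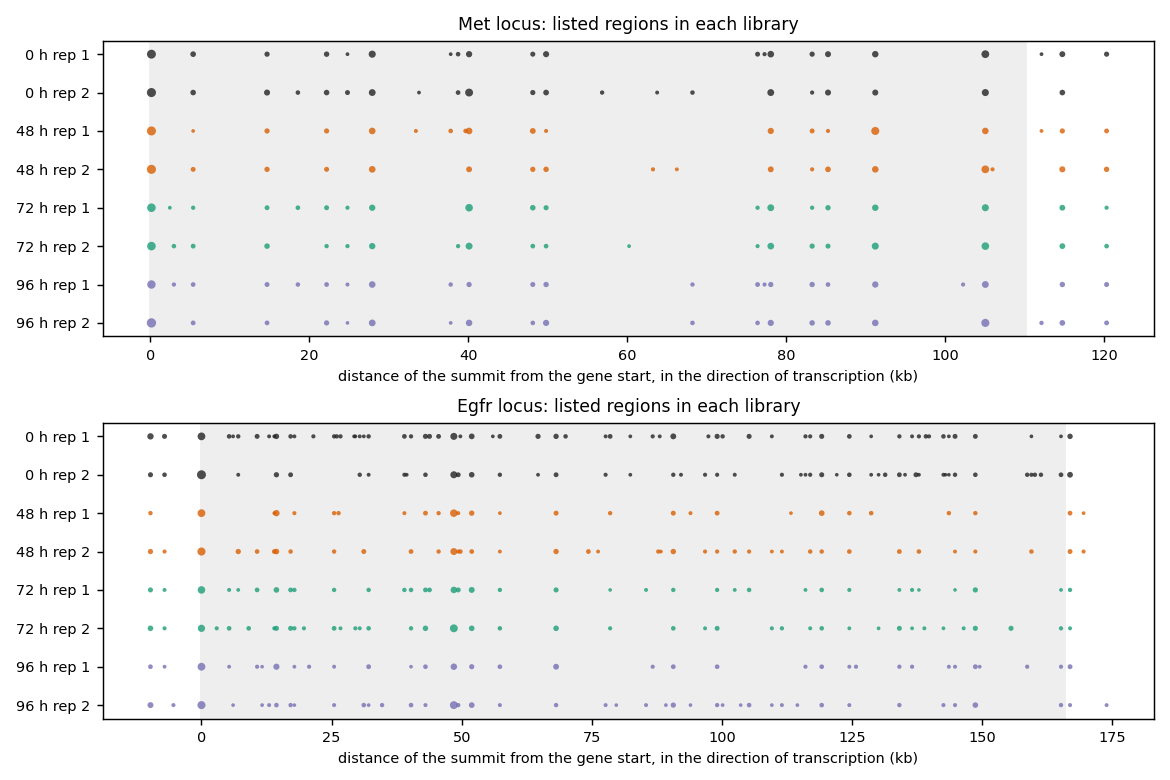
Listed regions of Met (top) and Egfr (bottom) in each library, placed by the distance of the summit from the gene start in kb, with larger dots for stronger ranks and grey marking the gene body. The strong Met regions recur in all 8 libraries, whereas the weaker Egfr regions are listed most often in the 0 h rows.

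The Egfr promoter ranked 6416 and 1927 at 0 h, 6196 and 4601 after 48 h, 7880 and 10050 after 72 h, and 6119 and 4790 after 96 h. Both 72 h libraries were weaker than both 0 h libraries, which themselves differed more than 3-fold. The fitted difference at 72 h was −1.34 ± 0.70 (SE), with an unadjusted p of 0.065 and an adjusted p of 0.52. Fold enrichment was 6.99 and 15.1 at 0 h and 8.42 and 5.11 after 72 h, and overlapped. The strongest distal region, in an intron 48.5 kb from the start, ranked 12232 and 12336 at 0 h and between 5627 and 18966 in the PHx libraries, with no separation at any time point. Just past the end of the gene, 166.8 kb from the start, a region (chr11:16918463-16920314) ranked 39515 and 30930 at 0 h, 58910 and 52998 after 48 h, 75831 and 87376 after 72 h, and 53657 and 84910 after 96 h. It was weaker in all 6 PHx libraries by rank, fold enrichment and share of the full list. Its fitted difference at 72 h was −1.22 ± 0.38 (SE), with an unadjusted p of 0.0025 and an adjusted p of 0.42. A further 4 Egfr regions, at −7.1, 64.7, 82.4 and 144.8 kb, were weaker in all 6 PHx libraries by rank, though not by share of the full list, and the one at 144.8 kb not by fold enrichment either. The region upstream of the promoter ranked 50787 and 65559 at 0 h, 83658 in the 1 listing 48 h library, 90090 and 83059 after 72 h and 94430 in the 1 listing 96 h library. Those at 64.7 and 82.4 kb were listed at 0 h alone, so that fold enrichment adds nothing to their separation by rank.
Egfr 48.5 kb: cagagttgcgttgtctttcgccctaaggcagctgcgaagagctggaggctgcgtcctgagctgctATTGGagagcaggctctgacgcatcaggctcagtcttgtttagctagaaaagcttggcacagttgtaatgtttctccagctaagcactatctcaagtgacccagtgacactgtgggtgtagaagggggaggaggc
Egfr 166.8 kb: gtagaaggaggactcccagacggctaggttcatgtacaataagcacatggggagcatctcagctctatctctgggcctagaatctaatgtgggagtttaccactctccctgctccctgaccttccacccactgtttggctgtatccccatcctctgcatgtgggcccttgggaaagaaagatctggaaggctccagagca
These windows (chr11:16800590-16800789 and chr11:16918948-16919147, plus strand) show the strongest Egfr region and the one weaker after PHx on all 3 scales. The first held an NFY match, in capitals, and the second no match.

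Erbb3 (ENSMUSG00000018166.8, chr10:128567523-128589652, minus strand), a neuregulin receptor of the Egfr family with impaired kinase activity, ranked 9404 and 11396 at 0 h, 12817 and 11316 after 48 h, 10534 and 16845 after 72 h, and 18695 and 17314 after 96 h at its promoter. The value of 0 h replicate 2 came from a neighbouring region 0.7 kb inside the gene. The region at the start ranked 14018 in that library, and both 96 h libraries were weaker than both 0 h libraries with either value. The fitted difference at 96 h was −0.80 ± 0.58 (SE), with an adjusted p of 0.94. An intronic region 14.4 kb from the start (chr10:128575155-128575546) was stronger in all 6 PHx libraries. It ranked 68360 in 0 h replicate 1, was not listed in 0 h replicate 2, and ranked 39045 and 37820 after 48 h, 40156 and 39238 after 72 h, and 59243 and 54187 after 96 h. The same held on the other 2 scales. The strongest interval near Erbb3, with ranks of 155 to 591, lies downstream of it at the promoter of the neighbouring gene Pa2g4.
Erbb3 14.4 kb: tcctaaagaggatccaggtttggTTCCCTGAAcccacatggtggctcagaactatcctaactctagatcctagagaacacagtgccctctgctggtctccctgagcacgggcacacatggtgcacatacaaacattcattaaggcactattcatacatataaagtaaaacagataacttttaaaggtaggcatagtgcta
The window (chr10:128575178-128575377, plus strand) shows the Erbb3 region that was stronger after PHx. Its capitals mark a match to the STAT letters (TTCNNNGAA), which were found in 5.43% of all distal windows.

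Insr (ENSMUSG00000005534.10, chr8:3122061-3279617, minus strand) ranked 7154 and 4994 at its promoter at 0 h, 10985 and 15812 after 48 h, 7280 and 13752 after 72 h, and 8065 and 8741 after 96 h. The promoter was weaker in all 6 PHx libraries, though 72 h replicate 1 (7280) lay next to 0 h replicate 1 (7154). Fitted differences were −1.14 ± 0.63 (SE) at 48 h, −0.74 ± 0.63 at 72 h and −0.49 ± 0.63 at 96 h, with adjusted p of 0.44, 0.70 and 0.98. The separation at 48 h held on all 3 scales, whereas that at 72 h was lost on both others and that at 96 h as a share of the full list. Fold enrichment was 10.1 and 12.0 at 0 h and 7.03 and 6.95 after 48 h. On that scale 68.2% of all promoters were weaker at 48 h. The strongest of 54 distal regions, an intronic one 58.4 kb from the start, ranked 12102 and 11119 at 0 h, 21987 and 26540 after 48 h, 16147 and 23929 after 72 h, and 8828 and 19232 after 96 h, weaker at 48 and 72 h and overlapping at 96 h. Another intronic region at 48.9 kb ranked 39627 and 34253 at 0 h and between 39676 and 78289 after PHx, weaker in all 6 libraries though the nearest values almost touch, and one at 133.9 kb was listed at 0 h alone (93415 and 89206). Both separations were absent as a share of the full list. The one at 48.9 kb was also present by fold enrichment, whereas a region listed at 0 h alone separates on that scale by construction. In the full lists, 8 of the 54 distal regions of Insr were listed in both libraries of a PHx time point but absent from both 0 h lists, and 2 showed the reverse, against 6.23% and 4.02% of all distal regions. Among the 8, an intronic region (chr8:3179946-3180243) was listed in both 48 h libraries (83952 and 83548) and in no other library.

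Igf1r (ENSMUSG00000005533.10, chr7:67952827-68233668, plus strand) had a weaker promoter interval than Insr in 8 of 8 libraries. At no time point did both libraries hold an interval with its summit inside the Igf1r promoter window. The overlapping interval ranked 34259 and 18928 at 0 h, 11294 and 20228 after 48 h, 21445 and 24140 after 72 h, and 23179 and 28132 after 96 h. Each time point overlapped 0 h, and the fitted difference at 48 h was 0.75 ± 0.52 (SE), with an adjusted p of 0.56. As a share of the full list both 48 h and both 72 h libraries were stronger than both 0 h libraries. The strongest distal region, in an intron 167.0 kb from the start, ranked 2554 and 4531 at 0 h and between 2265 and 12526 after PHx, and was thus stronger than the promoter in 8 of 8 libraries. A second intronic region 144.4 kb from the start (chr7:68096870-68097719) ranked 79011 and 73415 at 0 h, 33172 and 70550 after 48 h, 61519 and 30275 after 72 h, and 67257 and 36981 after 96 h. It was stronger in all 6 PHx libraries by rank and as a share of the full list, but not by fold enrichment. Another at 250.7 kb was weaker, with ranks of 78506 and 86978 at 0 h and 1 PHx listing (94355), by rank alone.
Igf1r 167.0 kb: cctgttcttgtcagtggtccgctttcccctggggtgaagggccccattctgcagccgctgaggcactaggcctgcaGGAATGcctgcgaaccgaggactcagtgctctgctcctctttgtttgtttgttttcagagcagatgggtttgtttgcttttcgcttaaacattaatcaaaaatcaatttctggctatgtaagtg
This window (chr7:68119677-68119876, plus strand), shown because it outranks the Igf1r promoter, held a TEAD match in capitals.

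Tnfrsf12a (ENSMUSG00000023905.15, chr17:23675445-23677468, minus strand) had a promoter that ranked below both 0 h libraries at every time point. Its promoter ranked 22444 and 20192 at 0 h, was not listed in 48 h replicate 1, and ranked 48705 in 48 h replicate 2, 31775 and 29179 after 72 h, and 27844 and 28345 after 96 h. Of the 8 libraries, 48 h replicate 1 had the lowest −log10 p at rank 50000 (8.05). It listed 6 of the 12 hepatocyte marker promoters, against 10 in 48 h replicate 2. Of the 135 promoters of signalling genes examined below, it listed 128, against 127 in 48 h replicate 2. All 6 PHx libraries were weaker than both 0 h libraries. Fold enrichment was 5.69 and 6.67 at 0 h, 2.83 in the 1 listing 48 h library, 5.16 and 4.52 after 72 h, and 5.34 and 5.19 after 96 h, again with no overlap. On that scale 68.2%, 35.6% and 25.9% of all promoters were weaker at 48, 72 and 96 h, and 16.2% in all 6 PHx libraries. As a share of the full list the 72 h libraries overlapped 0 h, while the 48 and 96 h libraries did not. Because 1 library did not list it, the promoter was left out of the limma fit over promoters listed in all 8 libraries. With 48 h replicate 1 set to the rank after the last and all such rows kept, the limma difference at 48 h was −1.75 ± 0.41 (SE), with an unadjusted p of 0.0026 and an adjusted p of 0.38. Without that library it was −1.19 ± 0.55 (SE), with an unadjusted p of 0.039 and an adjusted p of 0.47, and neither fit called the promoter at 72 or 96 h (adjusted p of 0.70 to 0.95). The only strong interval nearby, with ranks of 2657 to 9074, lies at the promoters of Hcfc1r1 and Thoc6.
Tnfrsf12a upstream: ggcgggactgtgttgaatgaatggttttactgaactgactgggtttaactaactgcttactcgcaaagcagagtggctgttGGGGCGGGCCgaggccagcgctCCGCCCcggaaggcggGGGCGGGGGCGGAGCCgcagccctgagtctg
This stretch of 150 bases before the annotated start (chr17:23677469-23677618, minus strand, 5′ to 3′) is shown because it lies in the promoter interval that was weaker in all 6 PHx libraries. The capitals mark several SP/KLF matches (GGGCGG, in 56.4% of the 15690 promoter windows) and overlapping matches to the NF-kB letters (58.3%).

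Tnfrsf1a (ENSMUSG00000030341.17, chr6:125349362-125362484, plus strand) ranked 33072 and 12217 at its promoter at 0 h, 44516 and 34971 after 48 h, 26403 and 36065 after 72 h, and 17316 and 30399 after 96 h. Both 48 h libraries were weaker than both 0 h libraries, which spread widely. The fitted difference at 48 h was −0.97 ± 0.51 (SE), with an unadjusted p of 0.064 and an adjusted p of 0.41, and the separation was absent as a share of the full list. An intronic region 5.4 kb from the start (chr6:125354299-125355330) ranked stronger in both 48 h libraries than either 0 h library. It ranked 11763 and 46283 at 0 h, 6847 and 8194 after 48 h, 16102 and 19526 after 72 h, and 20219 and 30748 after 96 h. The fitted difference at 48 h was 1.64 ± 0.61 (SE), with an unadjusted p of 0.011 and an adjusted p of 0.29, while the 72 and 96 h libraries lay between the 2 values of 0 h.
Tnfrsf1a 5.4 kb: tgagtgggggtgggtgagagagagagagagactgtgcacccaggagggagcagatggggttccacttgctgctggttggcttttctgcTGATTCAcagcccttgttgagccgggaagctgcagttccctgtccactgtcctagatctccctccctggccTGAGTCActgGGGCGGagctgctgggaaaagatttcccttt
The window (chr6:125354685-125354884, plus strand), shown as the member region with the largest positive fitted difference at 48 h, held a pair of AP-1 matches (TGANTCA, 7.82% of distal windows) and an SP/KLF match (7.11%). AP-1 is the Fos and Jun family of growth-responsive factors.

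Irs1 (ENSMUSG00000055980.2, chr1:82233101-82291416, minus strand) had the strongest promoter of the 10 genes. It ranked 1635 and 890 at 0 h, 1188 and 3136 after 48 h, 1310 and 1272 after 72 h, and 984 and 500 after 96 h, and by rank every time point overlapped 0 h. By fold enrichment both 48 h libraries were weaker than both 0 h libraries, as were 68.2% of all promoters. As a share of the full list both 96 h libraries were stronger, as were 23.3% of all promoters. The largest fitted difference was 0.78 ± 0.81 (SE) at 96 h, with an adjusted p of 0.97. A pair of regions in its intron, 6.8 and 7.4 kb from the start, were weaker in all 6 PHx libraries. The one at 6.8 kb ranked 53197 and 56404 at 0 h and 66664 to 101045 in the 3 PHx libraries that listed it, a separation absent as a share of the full list. The one at 7.4 kb (chr1:82283890-82284261) ranked 41616 and 36875 at 0 h, 42210 and 53900 after 48 h, 55168 and 68067 after 72 h, and 105019 and 101816 after 96 h. Its fitted difference at 96 h was −1.40 ± 0.37 (SE), with an unadjusted p of 0.00045, the lowest of the member regions, and an adjusted p of 0.67. The separation of this region was present on all 3 scales. The strongest distal region of Irs1, over a UTR 56.6 kb from the start, ranked 14965 and 12074 at 0 h, 21653 and 18317 after 48 h, 21067 and 31799 after 72 h, and 10740 and 35581 after 96 h, weaker at 48 and 72 h and overlapping at 96 h.
Irs1 7.4 kb: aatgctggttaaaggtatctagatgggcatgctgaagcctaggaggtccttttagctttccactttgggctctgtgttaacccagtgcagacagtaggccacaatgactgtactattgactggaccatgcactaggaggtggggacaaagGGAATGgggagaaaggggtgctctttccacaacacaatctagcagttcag
The window (chr1:82283940-82284139, plus strand) held a TEAD match in capitals.

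Irs2 (ENSMUSG00000038894.7, chr8:10984681-11008458, minus strand) ranked 23336 and 11292 at its promoter at 0 h, 29516 and 15132 after 48 h, 18305 and 20990 after 72 h, and 29705 and 13016 after 96 h. The value of 48 h replicate 2 came from a region 1.3 kb inside the gene. The upstream region that gave the other values, which like it also lies in the promoter window of 9530052E02Rik, ranked 36360 in that library, and followed alone it lay below both 0 h values in both libraries at 48 h. With the strongest interval per library the groups overlapped at every time point, and the fitted differences were between −0.38 and −0.27 with adjusted p of 0.81 to 0.98. Its strongest distal region, downstream of the gene and 34.1 kb from the start, ranked 9201 and 2862 at 0 h, 9874 and 16991 after 48 h, 6569 and 15605 after 72 h, and 17708 and 11119 after 96 h. At 48 and 96 h both libraries were weaker than both 0 h libraries. The difference at 96 h was −1.45 ± 0.69 (SE), with an adjusted p of 0.79.

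Errfi1 (ENSMUSG00000028967.10, chr4:150853919-150868892, plus strand) encodes Mig6, a feedback inhibitor of EGFR, and by rank was the only one of the 10 genes whose strongest promoter interval was stronger than in both 0 h libraries at any time point, whereas as a share of the full list this also held for Met (48 h), Igf1r (48 and 72 h) and Irs1 (96 h). This strongest interval ranked 34500 and 34314 at 0 h, 24652 and 29874 after 48 h, 29224 and 27417 after 72 h, and 45278 and 24531 after 96 h. These values come from 2 regions, both also within the promoter window of the neighbouring gene 1700045H11Rik, and neither region alone was stronger at both 48 and 72 h. The region 1.0 kb inside the gene ranked 34500 and 34314 at 0 h, 24652 and 30057 after 48 h, 54931 and 43543 after 72 h, and 45278 and 37626 after 96 h, and was thus stronger at 48 h but weaker at 72 and 96 h. The region 0.2 kb from the start ranked 35376 and 44091 at 0 h, 51446 and 29874 after 48 h, 29224 and 27417 after 72 h, and 59699 and 24531 after 96 h, stronger at 72 h and overlapping at 48 and 96 h. For the strongest interval the fitted differences were 0.34 ± 0.46 (SE) at 48 h and 0.28 ± 0.46 at 72 h, with adjusted p of 0.79 and 0.86. A region past the end of the gene, 18.1 kb from the start (chr4:150870720-150872771), was its strongest distal one. It ranked 10927 and 22319 at 0 h, 8658 and 12908 after 48 h, 8219 and 2878 after 72 h, and 7883 and 14994 after 96 h. Both 72 h libraries were stronger than both 0 h libraries, with a fitted difference of 1.68 ± 0.68 (SE), an unadjusted p of 0.017 and an adjusted p of 0.57. An intronic region 5.3 kb from the start ranked 68890 and 80186 at 0 h and was weaker in all 6 PHx libraries, 2 of which listed it (95600 and 88106), though not as a share of the full list.
Errfi1 18.1 kb: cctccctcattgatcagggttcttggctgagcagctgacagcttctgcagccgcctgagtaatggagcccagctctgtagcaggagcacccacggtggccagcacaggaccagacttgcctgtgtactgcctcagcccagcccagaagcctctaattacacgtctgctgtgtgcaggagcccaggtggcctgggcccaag
The window (chr4:150871948-150872147, plus strand), from the region with the largest fitted difference at 72 h, held none of the 12 motifs.

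Across the 10 promoters, 0 of the 9 listed in all 8 libraries were called by limma at 48, 72 or 96 h (adjusted p under 0.05), and 0 had an unadjusted p under 0.05. Of all 12988 promoters, 0.0385% were called at 48 h, 0.0077% at 72 h and 0.0077% at 96 h, and 1649, 1303 and 691 had an unadjusted p under 0.05. Promoters as a whole ranked weaker after PHx, with a median difference of −0.20 (48 h), −0.25 (72 h) and −0.10 (96 h). This direction turned at the later time points on the percentile scale, where in logit units the median of all promoters shifted by −0.06, 0.13 and 0.16. By rank, the 9 members had medians of −0.38, −0.36 and −0.19. Counted without a test, 3 of 10 promoters at 48 h (Insr, Tnfrsf12a and Tnfrsf1a), 4 at 72 h (Met, Egfr, Insr and Tnfrsf12a) and 3 at 96 h (Erbb3, Insr and Tnfrsf12a) were weaker in both libraries than either 0 h library, against 28.9%, 31.2% and 19.9% of all promoters. By its strongest interval, which changed region between libraries, Errfi1 was the 1 stronger promoter at 48 h and at 72 h, and 0 were stronger at 96 h, against 17.5%, 16.7% and 14.9%. In all 6 PHx libraries 2 of 10 were weaker and 0 stronger, against 7.91% and 4.47%. None of these counts differed from its background by more than 2 promoters. As a share of the full list, 3, 2 and 1 of the 10 were stronger and 2, 2 and 2 weaker at the 3 time points, against 21%, 28.6% and 23.3% of all promoters stronger and 22.5%, 16.3% and 12.3% weaker. By fold enrichment, 1, 1 and 0 were stronger and 6, 2 and 3 weaker, against 3.72%, 11.4% and 10.0% stronger and 68.2%, 35.6% and 25.9% weaker.

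**Figure D4:**
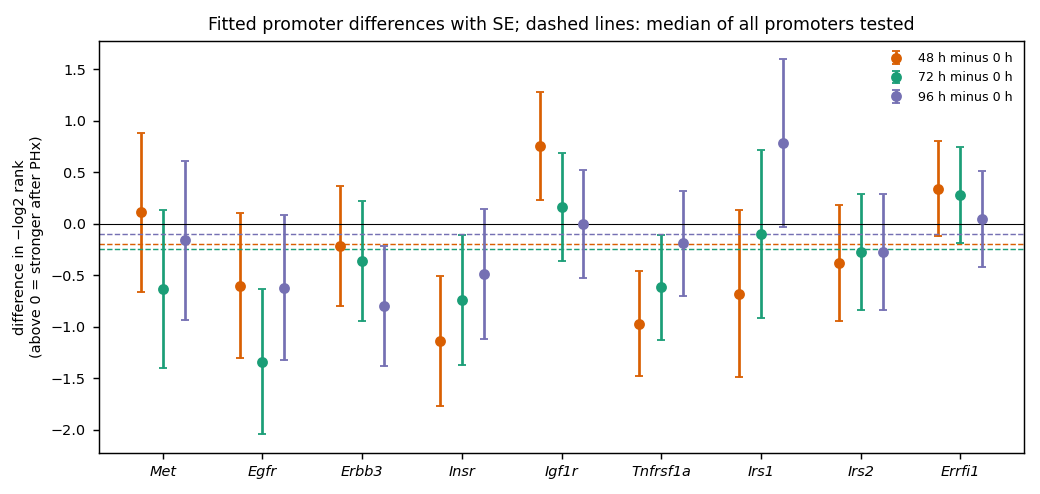
Fitted difference in −log2 rank from 0 h (vertical axis, above 0 stronger after PHx) for the 9 promoters listed in all 8 libraries, with bars of 1 SE and dashed lines at the median of all 12988 promoters. Egfr at 72 h (−1.34) and Insr at 48 h (−1.14) lie lowest, and Igf1r at 48 h (0.75) and Irs1 at 96 h (0.78) highest.

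The 10 loci held 311 distal regions, 236 of them in introns, 24 over coding exons, 11 over untranslated exons, and 16 upstream and 24 downstream of the genes. Of these, 10 overlapped the promoter of another gene. Of the 311, 52 (16.7%) were listed in all 8 libraries and 134 (43.1%) in 1 library, against 23.9% and 42.9% of all 137836 distal regions. Of the 52, 0 were called at any time point, with 7, 5 and 5 at an unadjusted p under 0.05 at 48, 72 and 96 h. Over all 32898 distal regions tested, 0.00912% were called at 48 h and 0.0% at 72 and 96 h, and 3881, 2593 and 2050 had an unadjusted p under 0.05. The median difference was −0.21, −0.09 and −0.16 for the 52 and −0.03, −0.01 and −0.03 for all.

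Counted without a test, distal regions at these genes were more often weaker than stronger by rank. At 48 h, 45 of the 112 regions that could be compared were weaker in both libraries than either 0 h library (40.2%, against 28.2% of all distal regions) and 18 stronger (16.1%, against 20.1%). The corresponding counts were 36 weaker (30.5%, against 22.7%) and 20 stronger (16.9%, against 23.7%) of 118 at 72 h, and 41 weaker (35.3%, against 23.2%) and 12 stronger (10.3%, against 18.3%) of 116 at 96 h. A region enters this count if both libraries of either group list it, so one listed at 0 h alone is weaker by construction. Among the 52 listed in all 8 libraries, 19 were weaker at 48 h, 14 at 72 h and 15 at 96 h (36.5%, 26.9% and 28.8%, against 23.6%, 21.3% and 19.5%). Without Egfr, 29 of 75 regions were weaker and 15 stronger at 48 h (38.7% and 20%), 21 and 15 of 80 after 72 h (26.2% and 18.8%), and 26 and 10 of 80 after 96 h (32.5% and 12.5%), to be read against the same shares of all distal regions, to which the 72 h weaker share was near. The split depended on the scale. As a share of the full list, 24 were stronger and 38 weaker at 48 h, 56 and 22 after 72 h, and 27 and 26 after 96 h. The weaker shares on that scale were 29.5%, 14.5% and 18.7%, against 22.1%, 9.87% and 13.6% of all distal regions, and the stronger ones 18.6%, 36.8% and 19.4%, against 24.2%, 40.9% and 27.8%. By fold enrichment 15 were stronger and 54 weaker at 48 h, 28 and 29 after 72 h, and 20 and 33 after 96 h. On the percentile scale, in logit units, the median of all distal regions itself shifted by 0.15, 0.47 and 0.27 at the 3 time points. On the fold enrichment scale the weaker shares (48.2%, 24.6% and 28.4%) stood beside 49.9%, 23.3% and 25.6% of all regions, and the stronger shares (13.4%, 23.7% and 17.2%) beside 8.54%, 21.3% and 14.3%.

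In all 6 PHx libraries, 15 of 104 member regions were weaker than both 0 h libraries (14.4%, against 8.66%) and 2 were stronger (1.92%, against 3.94%). The 15 comprised 5 at Egfr, 4 at Met, 2 each at Insr and Irs1 and 1 each at Igf1r and Errfi1, with the remaining gene counts at 0. By share of the full list 5 of 116 regions were weaker (4.31%, against 4.01%), and by fold enrichment 15 of 104 (14.4%, against 13.0%), a count that holds the regions listed at 0 h alone by construction. In the full lists, 22 of 311 regions were present in both libraries of a PHx time point and in neither 0 h library, against 6.23% of all distal regions. They lay at Insr (8), Igf1r (7), Egfr (3), Tnfrsf12a (2), Met (1) and Errfi1 (1). Another 30 were present in both 0 h libraries and in neither library of at least 1 PHx time point, against 4.02%. Of these 30, 17 lay at Egfr and 4 at Igf1r.

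**Figure D5:**
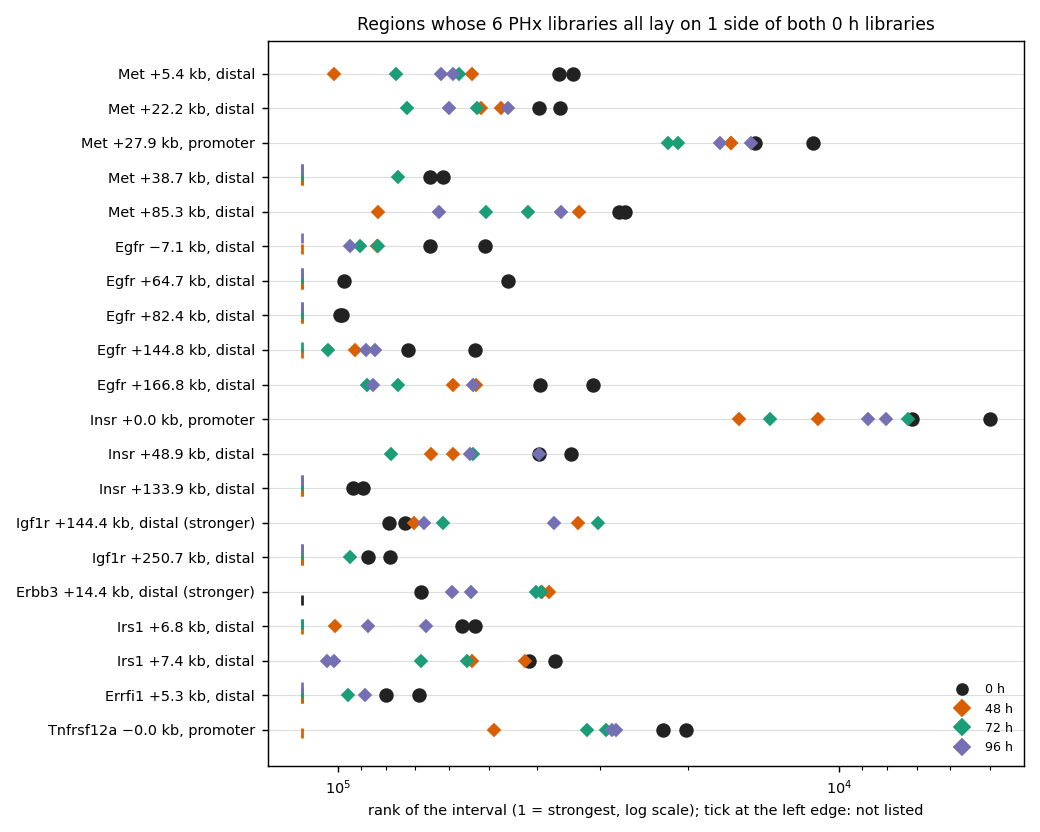
Rank in each library (horizontal axis, log scale, strongest to the right) of the 17 distal and 3 promoter regions whose 6 PHx libraries all lay on 1 side of both 0 h libraries, named by gene and distance from the start in kb. Black circles are 0 h, coloured diamonds the PHx time points and ticks at the left edge libraries in which the region was not listed. The regions of Erbb3 and of Igf1r marked as stronger lie to the right of their 0 h points, and the other 18 to the left.

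Genes around these receptors were examined at their promoters in 6 lists of 135 genes in all (ligands, other receptors, adaptors and proximal kinases, inhibitors and phosphatases, HGF activation and pericellular proteases, and TNF receptor signalling). None was called by limma at any time point. Of the 127 that could be compared at 48 h, 38 were weaker and 22 stronger in both libraries than either 0 h library, against 28.9% and 17.5% of all promoters. At 72 h the counts were 42 and 17 of 128 (31.2% and 16.7% of all promoters), and at 96 h 28 and 18 of 128 (19.9% and 14.9%). These counts were near the background, against which those of the single lists are also to be read. Adaptors and proximal kinases, among them the MAP kinase cascade, had 13 of 30 weaker and 4 stronger at 48 h, 14 and 2 after 72 h, and 7 and 3 after 96 h. Inhibitors and phosphatases, among them the Sprouty, SOCS and DUSP genes, had 6 of 27 weaker and 7 stronger at 48 h, 6 and 6 after 72 h, and 2 and 3 after 96 h. Ligand promoters had 1 of 12 weaker and 2 stronger at 48 h, 2 and 0 after 72 h, and 1 and 2 after 96 h. Other receptors had 6 of 20 weaker and 4 stronger at 48 h, 8 of 20 and 4 after 72 h, and 6 of 21 and 4 after 96 h. HGF activation and pericellular proteases had 3 of 14 weaker and 2 stronger at 48 h, 3 of 15 and 3 after 72 h, and 5 of 14 and 2 after 96 h, and TNF receptor signalling had 9 of 24 and 3, 9 and 2, and 7 and 4. The difference between these lists was not tested.

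By pattern over the 8 libraries, the promoter most like Met was that of Chmp3 (Pearson r = 0.98 of log2 ranks), the one most like Egfr that of Ttll11 (0.97) and the one most like Insr that of Zfp94 (0.97). The remaining nearest promoters were Dnm2 for Erbb3 (0.97), Wdr62 for Igf1r (0.95), Stn1 for Tnfrsf1a (0.96), Eef1a1 for Irs1 (0.97), Idh3a for Irs2 (0.96) and Alox5 for Errfi1 (0.95). These are the largest of 12987 values over 8 libraries that share depth, and are a description only. Between members, the highest value was that of Insr with Tnfrsf1a (0.74) and the lowest that of Tnfrsf1a with Errfi1 (−0.67).

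Among the 12 motifs, the shares at the 311 distal windows were close to those of all distal windows, for example 9.0% against 7.82% for AP-1, 13.8% against 10.3% for FOXA/FOXO, 9.32% against 7.79% for HNF4 and 13.2% against 10.8% for C/EBP. The median GC content was 48.5% at member and 49.5% at all distal windows, and 68.5% and 65.5% at promoter windows. Of the 10 promoter windows, 8 held an NF-kB match (58.3% of all promoter windows), 5 an SP/KLF match (56.4%) and 1 a TEAD match (6.43%). None held the NFY (25%), C/EBP (4.58%), STAT (3.55%), HNF4 (2.98%), CRE (TGACGTCA, 1.45%), E2F (TTTNGCGC, 1.43%) or SREBP (TCACNCCAC, 0.682%) letters. The windows of Met and Erbb3 held an AP-1 match (3.0%) and those of Insr and Igf1r a FOXA/FOXO match (3.77%), the class that includes the insulin-responsive FOXO factors. A match is a string of letters and was not tested for binding.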

How the data were processed

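ATAC-Seq peak lists of 8 libraries were used. Per the study's methods, the authors ran the ENCODE ATAC-Seq pipeline, trimmed reads, aligned them to mm10 with Bowtie2, removed PCR duplicates and called peaks with MACS2. The deposited lists, 1 for each library, give a fold enrichment ratio over local background, a −log10 p and −log10 q per peak and a summit offset. They hold no read counts, so the authors' test on counts could not be run. Depth is unknown and no interval on a value was computed. The study's text describes more replicates at 0 and 48 h, which were not analysed here.

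Lines sharing an interval were collapsed to the highest −log10 p, and intervals were ranked within each list. A rank past the shortest list (105206) counted as not listed in every library. Intervals of all lists overlapping by at least 1 bp were merged into 205641 consensus regions. Promoters were windows of 1000 bp either side of any of 45152 annotated starts of protein-coding genes (GENCODE M21 basic), and distal regions lay within 10000 bp of a gene body and outside its promoter windows. Rows listed in all 8 libraries were fitted on −log2 rank over all groups by limma 3.58.1 (R 4.3.3, trend, moderated variance), with Benjamini-Hochberg adjustment over the whole table and a threshold of 0.05. All 3 contrasts share the 0 h libraries. On simulated data with 200 changed rows, the fit at 48 h recovered 5% of promoters shifted by 1 and 49% of those shifted by 2 on the log2 scale (12988 rows). For distal regions (32898 rows) it recovered 9% and 67%. The simulated noise was Gaussian and independent between libraries, with its spread smoothed over rows of like mean rank. Rows with a larger spread than that were not simulated, so these rates do not cover them. Separation of both libraries of a group from both 0 h libraries was counted without a test. The further scales were the percentile within the full list and log2 fold enrichment. Fold enrichment was quantile-normalised between libraries for the fit, while separation was counted on the values as given in the lists. Both strands were searched for motifs in 200 bp centred on the strongest summit, in GRCm38.p6, where 0 intervals passed a chromosome end, and overlapping matches were each counted. Sequences over an annotated UTR were not printed. The NCBI promoter table was not used.

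Named items were the 10 genes, and of their regions the strongest distal one per gene, any called by the fit, any on 1 side of both 0 h libraries in all 6 PHx libraries, and any listed in both libraries of a time point and in neither 0 h list or the reverse, mostly given as counts. Other named regions had an unadjusted p under 0.05, or were the regions behind a promoter value that changed region between libraries, and were chosen after their values were seen. The members, gene lists, motifs and tests were chosen with earlier results of these data known. Kdr and Pdgfrb stand in both a pathway and a marker list. Alternatives changed the scale, peak threshold, rows tested, overlap, interval width, promoter window and starts, added a replicate block or left out each library in turn. Same-numbered libraries did not deviate together (r from −0.087 to 0.12 over promoters), so the numbers were not taken as pairs.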

Additional observations from a re-analysis of the deposited data

Results flagged for a closer look

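Of the 109 distal regions of the members compared at more than 1 time point, 7 lay on opposite sides of both 0 h libraries at different time points (6.42%, against 6.14% of all distal regions). The difference between time points was not tested for any of them. Values are mean differences in log2 rank, with unlisted libraries set to the rank after the last and a positive value meaning a weaker earlier time point. An Egfr intronic region 148.7 kb from the start ranked 56234 and 66123 at 0 h, 72340 and 83081 after 48 h, 44903 and 47841 after 72 h, and 56147 and 35866 after 96 h, a difference of 0.74 between 48 and 72 h and of 0.79 between 48 and 96 h. A second Egfr region 32.1 kb from the start was listed at 72 h (71523 and 68525) and in neither 48 h library (0.59). A Met intronic region 48.1 kb from the start ranked 30405 and 44283 after 48 h and 50542 and 64467 after 96 h, around 49311 and 45989 at 0 h (−0.64). At Tnfrsf1a, the upstream region at −5.1 kb differed by 0.43 between 48 and 96 h, and the intronic region at 2.3 kb by −0.50 between 48 and 96 h and −0.46 between 72 and 96 h, where both 96 h libraries did not list it. At Insr, the region at 29.3 kb differed by 0.44 between 72 and 96 h and that at 17.2 kb by −0.73 between 48 and 96 h.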

How the results depend on the processing

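The fit called 0 members at every time point under each alternative scale, threshold, overlap, width and window, with the replicate block (0 members, promoter and distal) and without each library in turn. The replicate block changed no call of a member, and with it 3, 0 and 1 of all promoters and 2, 0 and 0 of all distal regions were called, against 5, 1 and 1 and 3, 0 and 0 without it. The counts of separated libraries did depend on the processing. As a percentile within the full list, promoters were stronger in 3, 2 and 1 cases at 48, 72 and 96 h and weaker in 2 at 72 h. None of the 10 was weaker in all PHx libraries, against 3.84% of all promoters. Distal regions were then stronger in 56 at 72 h and 27 at 96 h, and weaker in 22 at 72 h and 26 at 96 h. In all PHx libraries 5 were stronger (4.31%, against 6.92% of all distal regions) and 5 weaker (4.31%, against 4.01%). By fold enrichment, promoters were weaker in 6 at 48 h, 2 at 72 h and 1 in all PHx libraries (10.0%, against 16.2% of all promoters). Distal regions were stronger in 20 at 96 h on that scale. In the 50000 strongest intervals, where fewer regions remained, distal counts were 7 stronger and 16 weaker at 48 h (17.5% and 40.0%, against 23.0% and 26.8% of all distal regions), 7 and 11 after 72 h (16.3% and 25.6%, against 24.0% and 23.6%), 1 and 12 after 96 h (2.5% and 30.0%, against 18.6% and 22.4%), and 0 and 6 in all PHx libraries (0.0% and 15.4%, against 4.54% and 8.51%). With 50% overlap, 10 were stronger and 37 weaker at 48 h (13.3% and 49.3%, against 19.4% and 33.5%) and 1 and 15 in all PHx libraries (1.52% and 22.7%, against 2.92% and 12.7%). The cause of these differences was not tested, except that fewer regions or libraries could be compared. Leaving out a library left these counts as they were or raised them, since fewer libraries had to separate, and the shares of all promoters and distal regions rose with them. Promoters then were stronger in 1 to 4 cases at 48 h, 1 to 4 at 72 h and 0 to 4 at 96 h, and weaker in 3 to 6, 4 to 8 and 3 to 7, while 28.9% to 46.0%, 31.2% to 47.8% and 19.9% to 43.4% of all promoters were weaker and 17.5% to 33.9%, 16.7% to 31.3% and 14.9% to 37.7% stronger. Distal regions were stronger in 18 to 56, 20 to 56 and 12 to 54, and weaker in 45 to 99, 36 to 95 and 41 to 98, while 28.2% to 52.5%, 22.7% to 49.3% and 23.2% to 50% of all distal regions were weaker and 20.1% to 48.0%, 23.7% to 46.2% and 18.3% to 45.6% stronger. In all remaining PHx libraries, promoters were stronger in 0 to 1 and weaker in 2 to 5, against 5.18% to 13.3% and 8.96% to 23.6% of all promoters. Distal regions were stronger in 2 to 13 and weaker in 17 to 68, against 4.77% to 10.0% and 10.3% to 35.8% of all distal regions. Their highest weaker counts came without 0 h replicate 1 (68, or 45.0%, against 35.8% of all distal regions) or 0 h replicate 2 (55, or 35.7%, against 22.7%). Leaving out 0 h replicate 1 gave the largest weaker counts of promoters at 48 h (6), 72 h (8) and 96 h (7) of 10, against 45.1%, 47.8% and 37.4% of all promoters, and 5 in all PHx libraries, against 23.6%. With full lists, chosen after seeing the data, fewer regions were listed at 1 locus at 48 h, 0 at 72 h and 0 at 96 h, and more at 1, 3 and 0. The count of all promoters called at 48 h ranged from 0 by fold enrichment to 50 without 96 h replicate 2 and 47 without 96 h replicate 1. A library left alone in its group was assumed to vary like the other groups. In simulated data at 48 h, most differences of 1 log2 unit were not recovered.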
